A study of Mus musculus with 6 samples.

Results

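Trf2 (TBP-related factor 2, listed under its symbol Tbpl1) is a paralogue of the TATA-box binding protein that is abundant in haploid male germ cells. The genes described here are the protein-coding genes that still carry a RIKEN clone name of the 49-series, in which the name starts with 4921, 4922, 4930, 4931, 4932 or 4933 and ends in Rik. They were selected by gene name and annotated biotype, with earlier results of these data known. The deposited table holds 276 such genes, with 275 different names, among 26743 genes. RNA-seq was performed on total testis RNA of 3 wild-type (WT) and 3 Trf2-/- mice at post-natal day 21, and the study's methods name a 129/SvPas background for the mice it generated. The inactivation of Trf2 is constitutive and not restricted to germ cells. The 3 mice of each genotype are independent biological replicates.

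RIKEN clone names were assigned to full-length cDNAs sequenced before the function of their genes was known. Clones numbered in the 49-series came largely from libraries of adult mouse testis, so that many of these genes are expressed in germ cells, and many have since received a symbol. In the mouse, the first wave of spermatogenesis is synchronous, and around post-natal day 21 the most advanced germ cells are the round spermatids, haploid cells that have just completed meiosis. Round spermatids switch on genes for the acrosome, the flagellum and, later, the compacted sperm chromatin. Spermatocytes, the cells in meiosis, already transcribe part of these genes. RefSeq gave a matching entry on the same chromosome for 255 of the 276 genes, and for 126 of them the entry has a newer symbol, which is used below beside the clone name. RefSeq classes 208 of the matched genes as protein-coding, whereas 47 are now classed as non-coding RNAs or transcribed pseudogenes.

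Promoter sequences were found in RefSeq (build GRCm38.p6, 300 bases from 250 before to 50 after the annotated start) for 207 of the members, which correspond to 206 RefSeq genes. The 120 bases upstream of the start are shown for the 5 members with the lowest adjusted p among those called down-regulated that have an entry. They are also shown for the tested members that hold a complete cAMP response element, the site bound by CREM, a regulator of haploid gene expression. Capitals mark matches on either strand to TGACGTCA (the complete element), TGACG (its shorter core, which the complete element contains), TATAAA (the TATA box) and CCAAT. Sequences run 5′ to 3′ on the strand of the gene and end at base -1.
Lkaaear1 (4930526D03Rik), minus strand of chr2:181698443-181698562: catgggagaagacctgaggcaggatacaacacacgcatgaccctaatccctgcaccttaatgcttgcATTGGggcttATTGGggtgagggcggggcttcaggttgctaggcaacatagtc
4933414I15Rik, minus strand of chr11:50943726-50943845: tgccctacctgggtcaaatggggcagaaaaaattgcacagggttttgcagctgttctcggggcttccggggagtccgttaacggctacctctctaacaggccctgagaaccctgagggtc
Erich3 (4922501L14Rik), plus strand of chr3:154711013-154711132: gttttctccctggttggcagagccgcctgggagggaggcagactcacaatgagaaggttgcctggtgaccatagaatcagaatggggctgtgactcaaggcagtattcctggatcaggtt
Potegl (4931423N10Rik), plus strand of chr2:23207356-23207475: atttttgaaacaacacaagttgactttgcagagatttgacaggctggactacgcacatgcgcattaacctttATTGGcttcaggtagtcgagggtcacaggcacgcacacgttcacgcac
4930562C15Rik, plus strand of chr16:4835296-4835415: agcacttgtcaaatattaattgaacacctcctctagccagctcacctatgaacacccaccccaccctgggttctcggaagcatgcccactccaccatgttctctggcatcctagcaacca
Ccdc173 (4930578N16Rik), minus strand of chr2:69789487-69789606: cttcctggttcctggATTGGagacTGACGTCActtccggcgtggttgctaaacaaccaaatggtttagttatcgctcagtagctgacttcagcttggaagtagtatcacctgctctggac
Zgrf1 (4930422G04Rik), plus strand of chr3:127553369-127553488: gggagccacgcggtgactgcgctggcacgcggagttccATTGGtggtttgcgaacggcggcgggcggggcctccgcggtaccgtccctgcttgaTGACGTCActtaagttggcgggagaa

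In these windows, Lkaaear1 and Potegl hold the CCAAT motif in reverse orientation, at -53 and -43 in Lkaaear1 and at -48 in Potegl. The windows shown of 4933414I15Rik, Erich3 and 4930562C15Rik hold none of the searched letters. The complete element stands at -96 in Ccdc173 and at -26 in Zgrf1. Over the whole 300 bases, TGACGTCA was found in 4 of the 206 member genes (1.94%), and in 2.03% of the 27025 genes with a promoter. It was found in none of the 28 called down-regulated members that have a promoter entry. TGACG was found in 21.8% of the members and in 23% of all genes, TATAAA in 11.2% and 15.7%, and CCAAT in 38.3% and 41.1%. Among the 28 down-regulated members, 4 held TGACG, 3 held TATAAA and 9 held CCAAT. The members' shares of these letters lie close to or under those of all promoters.

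Reads counted on genes ranged from 21582123 to 29859347 per WT mouse and from 15187062 to 24530489 per Trf2-/- mouse, the lowest being Trf2-/- mouse 3. Levels are given as CPM, counts of a gene relative to library size after TMM scaling, and 3 counts, the most that a count of 0 leaves possible, amount to 0.1045 to 0.1439 CPM in WT and 0.119 to 0.1896 CPM in Trf2-/- mice. Tbpl1 went from 295 ± 12.5 CPM in WT to 61.0 ± 4.6 CPM in Trf2-/- testis (SD, n = 3 per genotype), a log2 fold change of -2.27 (edgeR adjusted p = 1.18e-06). Summed levels of 8 round spermatid markers lay between 66.9 and 71.2 CPM in WT testis and from 29.2 to 44.4 CPM in Trf2-/- testis, and 5 of the 7 tested were lower at an adjusted p under 0.05. Among the defining markers of elongating spermatids, Prm2 and Prm3 had at most 3 counts in each mouse, and the summed level of that list was 6.86 to 8.58 CPM in WT and 0.948 to 1.63 CPM in Trf2-/- testis. The 8 pachytene spermatocyte markers were all lower, with a median log2 fold change of -0.74. Their decreases were uneven, from -1.63 for Ccna1 to -0.16 for Mybl1. In contrast, none of the 8 spermatogonial or 7 tested Sertoli cell markers was lower. Higher at an adjusted p under 0.05 were 1 of the 8 spermatogonial and 3 of the 7 Sertoli cell markers (Amh, Cldn11 and Clu). Sertoli cell markers summed to 1459 to 1604 CPM in WT and 1703 to 1902 CPM in Trf2-/- testis, and their part in the members' decreases was not tested. Most of the Sertoli cell sum was Clu, with means of 1094 CPM in WT and 1275 CPM in Trf2-/- testis. In these whole-testis samples, fewer cells of a type and less RNA per cell cannot be told apart.

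Of the 276 members, 186 had enough counts to be tested. At an adjusted p under 0.05, 92 were lower in Trf2-/- testis (49.5% of those tested), 8 were higher (4.30%) and 86 did not pass the test. Over all 16924 tested genes, the shares were 20.2% lower and 11.2% higher. With the further requirement of a 2-fold change, 37 members were called down-regulated (19.9%, against 4.3% of all tested genes) and 1 was called up-regulated (0.538%, against 0.609%). The median log2 fold change was -0.46 over the tested members and 0.04 over all tested genes. In 111 members, each WT mouse had a higher level than each Trf2-/- mouse (59.7%, against 26.8% of all tested genes), and in 15 the reverse held (8.06%, against 22.3%). The other 55 members that were lower changed by less than 2-fold.

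**Figure D1:**
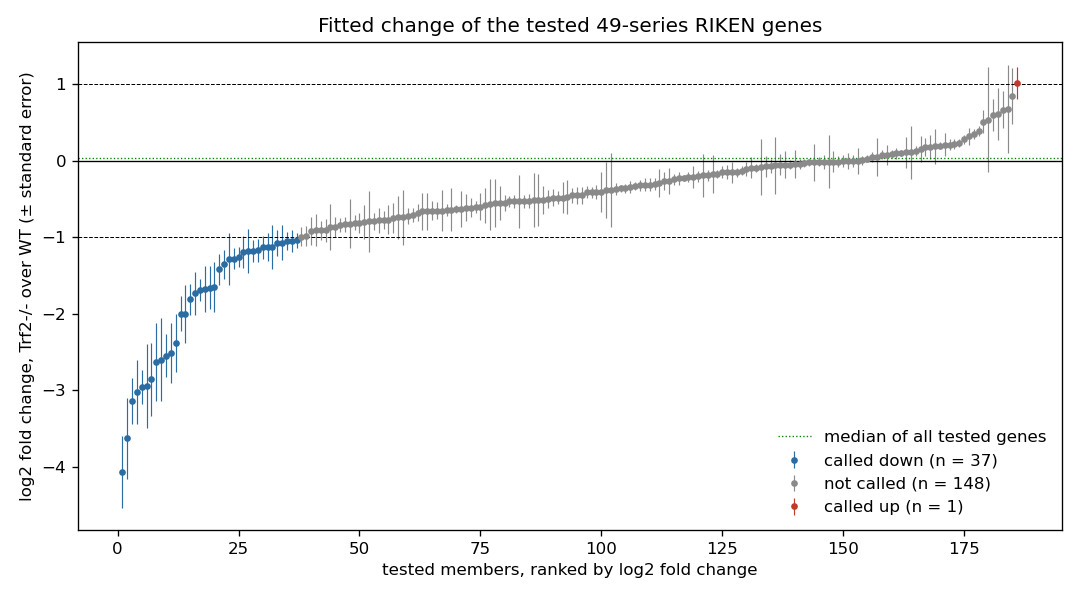
Fitted log2 fold change (Trf2-/- over WT, y axis) with its standard error for the 186 tested members, ranked from the largest decrease to the largest increase (x axis). The 37 members called down-regulated run from -4.07 to -1.04 and only 4933403O08Rik, at 1.02, was called up-regulated; dashed lines mark a 2-fold change and the dotted line the median of all tested genes, 0.04.

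Similarly named genes were compared to see where the members stand among them. RIKEN genes of the 1700-series, whose clones also came from testis, were called down-regulated in 52 of 155 tested protein-coding cases (33.5%), with a median log2 fold change of -0.70. Genes with a 49-series name and another biotype were called in 32 of 139 cases (23%), with a median of -0.52. In contrast, the other RIKEN-named protein-coding genes were called in 17 of 628 cases (2.71%), with a median of 0.02. The members therefore showed a higher share of decreases than RIKEN-named genes of other libraries and a lower share than the 1700-series. These shares are given as descriptions and the differences between lists were not tested.

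**Figure D2:**
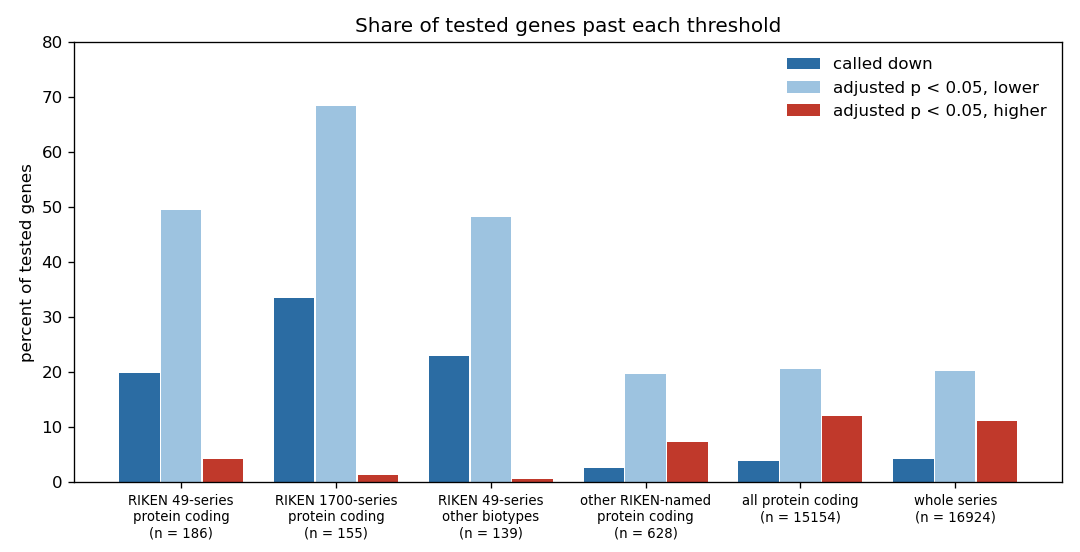
Percentage of tested genes (y axis) called down-regulated, lower at an adjusted p under 0.05, or higher at an adjusted p under 0.05, for 6 lists of genes (x axis, with the number tested). The 49-series members reach 19.9% called down-regulated and 49.5% lower, between the 1700-series (33.5% and 68.4%) and all tested genes (4.30% and 20.2%).

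The largest decreases were found among members with few reads. Mroh9 (4921528O07Rik, ENSMUSG00000071890), named for its maestro heat-like repeats, spans 22 exons on the minus strand of chr1:164954433-165015801 (NCBIM37). It had 36, 44 and 25 counts in WT testis and 2, 3 and 0 counts in Trf2-/- testis. The genotypes were far apart, and the summed counts were 17.9-fold lower in the mutant (95% exact counting interval 7.42 to 56.2, fitted log2 fold change -4.07, adjusted p = 0.000621). The X-linked 4932429P05Rik had 18, 16 and 14 counts against 1, 2 and 0 counts, 13.6-fold lower with an interval of 4.39 to 68.3 (adjusted p = 0.00137). In both genes, each Trf2-/- mouse was at or under the limit of 3 counts, so the size of the decrease is set by depth.

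Erich3 (4922501L14Rik), a glutamate-rich protein gene whose promoter is shown above, had 41, 43 and 33 counts in WT and 3, 5 and 3 counts in Trf2-/- testis. This is a 9.05-fold lower sum (interval 4.87 to 18.6, adjusted p = 0.000390). Tex36 (4930404H21Rik), a testis-expressed gene on chromosome 7, had 36, 34 and 28 counts in WT and 2, 7 and 1 counts in the mutant (8.34-fold lower, interval 4.35 to 17.9, adjusted p = 0.00115). The remaining genes with a comparable loss are less well characterised. Counts of 4930578I06Rik went from 36, 36 and 21 to 2, 8 and 0, with a fitted log2 fold change of -2.94 (adjusted p = 0.00418). Phf8-ps (4921501E09Rik), which RefSeq classes as a transcribed pseudogene, had 59 counts in each of the WT mice against 8, 13 and 0 counts in Trf2-/- testis. Its fitted log2 fold change was -2.86 (adjusted p = 0.00255), and reads of the related gene Phf8 could have been counted on it. The 17-exon gene 4921504E06Rik had 57, 41 and 47 counts in WT and 10, 7 and 4 counts in the mutant, a log2 fold change of -2.55 (adjusted p = 0.000534). The counts of 4930433I11Rik went from 23, 18 and 24 to 6, 3 and 0, a log2 fold change of -2.60 (adjusted p = 0.00675).

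Other decreases were found in better covered members. Lkaaear1 (4930526D03Rik, ENSMUSG00000045794), which lies on the minus strand of chr2:181431498-181433147 (NCBIM37) and has 4 exons, had the lowest adjusted p. Its level was 10.7, 8.66 and 10.5 CPM in WT testis and 1.31, 1.63 and 0.759 CPM in Trf2-/- testis, with no overlap. The log2 fold change was -2.96 (SE, the standard error, 0.22; adjusted p = 0.000176). 4933414I15Rik (chr11:50754213-50757267 in NCBIM37), listed as protein-coding but classed by RefSeq as a long non-coding RNA, had 194, 172 and 164 CPM in WT and 55.4, 66.4 and 41.4 CPM in Trf2-/- testis. Its log2 fold change was -1.69 (SE 0.14, adjusted p = 0.000282). Another annotated gene of the same name overlaps its exons on the same strand, so its reads may have been divided between both. Toporsl (4930547C10Rik), related by name to the ubiquitin and SUMO ligase gene Topors, had 96.9, 88.1 and 93.5 CPM in WT and 26.1, 29.8 and 12.6 CPM in the mutant, a log2 fold change of -2.0 (adjusted p = 0.000594). It is named here for its level, after its values were seen. Finally, 4930542C12Rik, a gene with 1 exon on chromosome 9, fell from 6.74 ± 0.348 to 2.80 ± 0.190 CPM (SD, n = 3 per genotype), a log2 fold change of -1.26 (adjusted p = 0.000464). Its exon overlaps Ddx43 on the opposite strand.

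**Figure D3:**
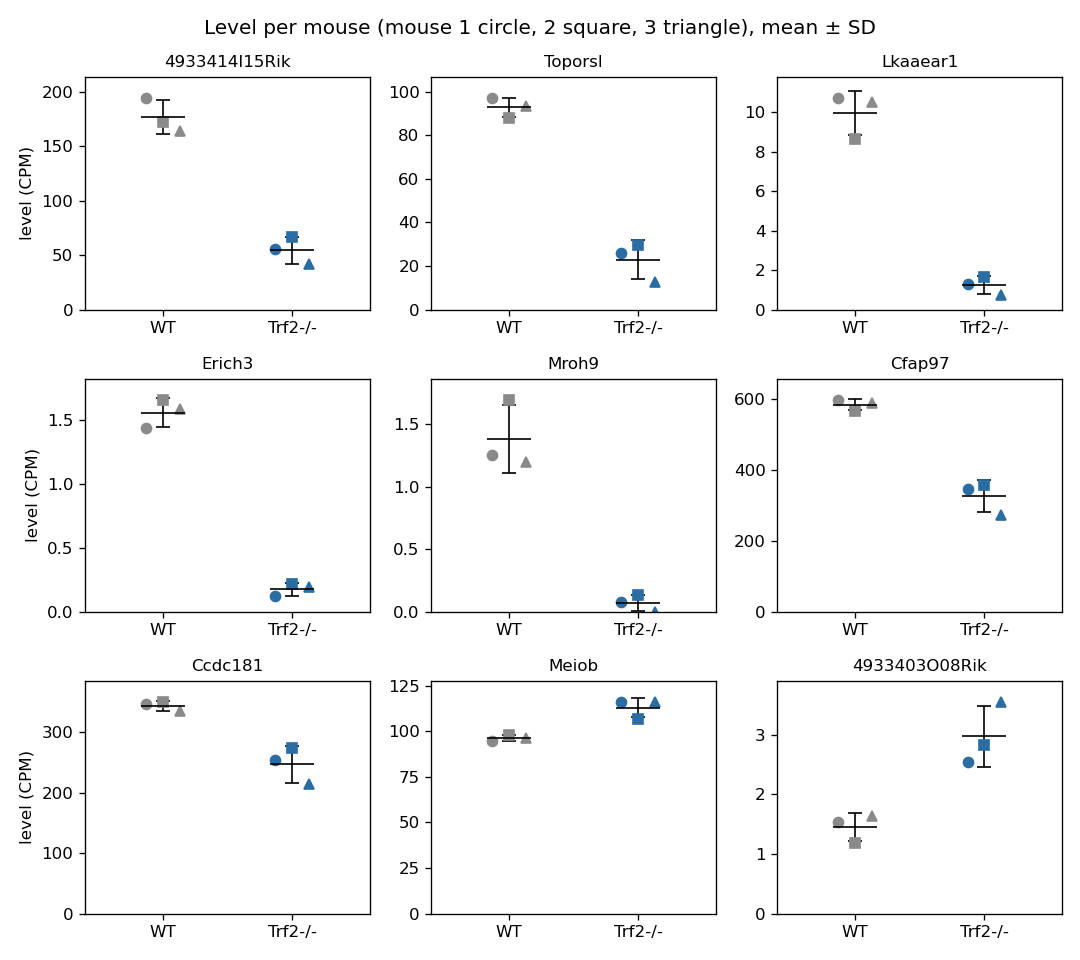
Level in CPM (y axis, starting at 0) of 9 members in each WT and Trf2-/- mouse (x axis; circle, square and triangle for mice 1, 2 and 3), with the mean and SD of 3 mice. The 9 members were chosen by hand as examples, and genotypes do not overlap in any of them. Over the tested members, 59.7% do not overlap and are lower, and 8.06% are higher. Over all tested genes, the shares are 26.8% and 22.3%. In the panels, 7 genes are lower in Trf2-/- testis, and Meiob and 4933403O08Rik are higher. Trf2-/- mouse 3 is the lowest mutant in 4933414I15Rik, Toporsl, Lkaaear1, Mroh9, Cfap97 and Ccdc181.

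The members with the highest WT level per kilobase of gene length were all lower in Trf2-/- testis. They were picked by their WT level, against which the change is measured, so the choice leans towards genes that are lower. Of the 48 tested members above 50 CPM in WT, 31 were lower and 2 were higher at an adjusted p under 0.05. Over all tested genes, 20.2% were lower and 11.2% higher. Clec2m (4922502D21Rik), a C-type lectin family gene, stood first with 263, 274 and 274 RPKM in WT and 189, 197 and 130 RPKM in Trf2-/- mice. Its log2 fold change was -0.65 (SE 0.13, adjusted p = 0.00578). Ccdc181 followed at a mean of 180 RPKM in WT and 129 RPKM in the mutant. Ppp1r14bl, 4930544G11Rik, Tmbim7, Cfap97 and Taf7l2 had WT means of 127, 125, 114, 113 and 111 RPKM, and 4933414I15Rik had 75.2 RPKM. The decreases of these genes ranged from a log2 fold change of -0.32 for Taf7l2 to -1.69 for 4933414I15Rik, and 4930544G11Rik was also called down-regulated, at -1.08 (adjusted p = 0.00208). Tmbim7 (4930511M11Rik), of the transmembrane BAX inhibitor motif family, had a log2 fold change of -0.99, just short of the 2-fold requirement. Summed over all 276 members, the level was 9486 to 9822 CPM in WT and 6873 to 7720 CPM in Trf2-/- mice.

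Members were then grouped by role, from their current symbol and general knowledge. Some, such as Cfap97 and Slc25a54, were placed by name or family alone. Over all tested members, 49.5% were lower and 4.3% higher, and over all tested genes 20.2% and 11.2%. Differences of the groups from these shares were not tested. The cilium and flagellum group held 11 genes, of which 9 were tested, 7 were lower and none was higher, with a median log2 fold change of -0.60. Cfap61 (4930529M08Rik), a component of the radial spoke region that regulates axonemal beating, had 37.7, 34.1 and 40.3 CPM in WT and 21.5, 20.2 and 14.3 CPM in Trf2-/- testis. Its log2 fold change of -0.98 (SE 0.13, adjusted p = 0.00104) was the largest in the group. Maats1 (4932425I24Rik), also of the radial spoke region, fell from 42.1 ± 2.22 to 24.2 ± 4.33 CPM (SD, n = 3 per genotype; log2 fold change -0.79, adjusted p = 0.00136). Dnaaf6 (4930521A18Rik), required to preassemble dynein arms in the cytoplasm, fell from 27 ± 0.699 to 16.3 ± 2.74 CPM (log2 fold change -0.72, adjusted p = 0.00175).

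Cfap97 (4933411K20Rik) had 596, 567 and 588 CPM in WT and 346, 356 and 273 CPM in Trf2-/- mice (log2 fold change -0.84, adjusted p = 0.000492). Jhy, needed for the cilia of ependymal cells, Ccdc181, a microtubule-binding protein of the flagellum, and Ccdc173, a protein of axonemal microtubules, had log2 fold changes of -0.60, -0.48 and -0.34, all past the test. Cfap20dc and Stpg1 did not pass it, at -0.04 and -0.01, and lay above 0 when libraries were scaled by size alone. Thus none of the 9 reached the 2-fold requirement with all 6 mice, and differences between these genes were not tested. Cfap61, at -0.98, did reach it without WT mouse 2 (-1.05), without Trf2-/- mouse 1 (-1.11) or without Trf2-/- mouse 2 (-1.05). Cfap61 and Cfap97 each overlap another gene on the opposite strand, and the strand setting of the counting is not given in the sources used here.

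**Figure D4:**
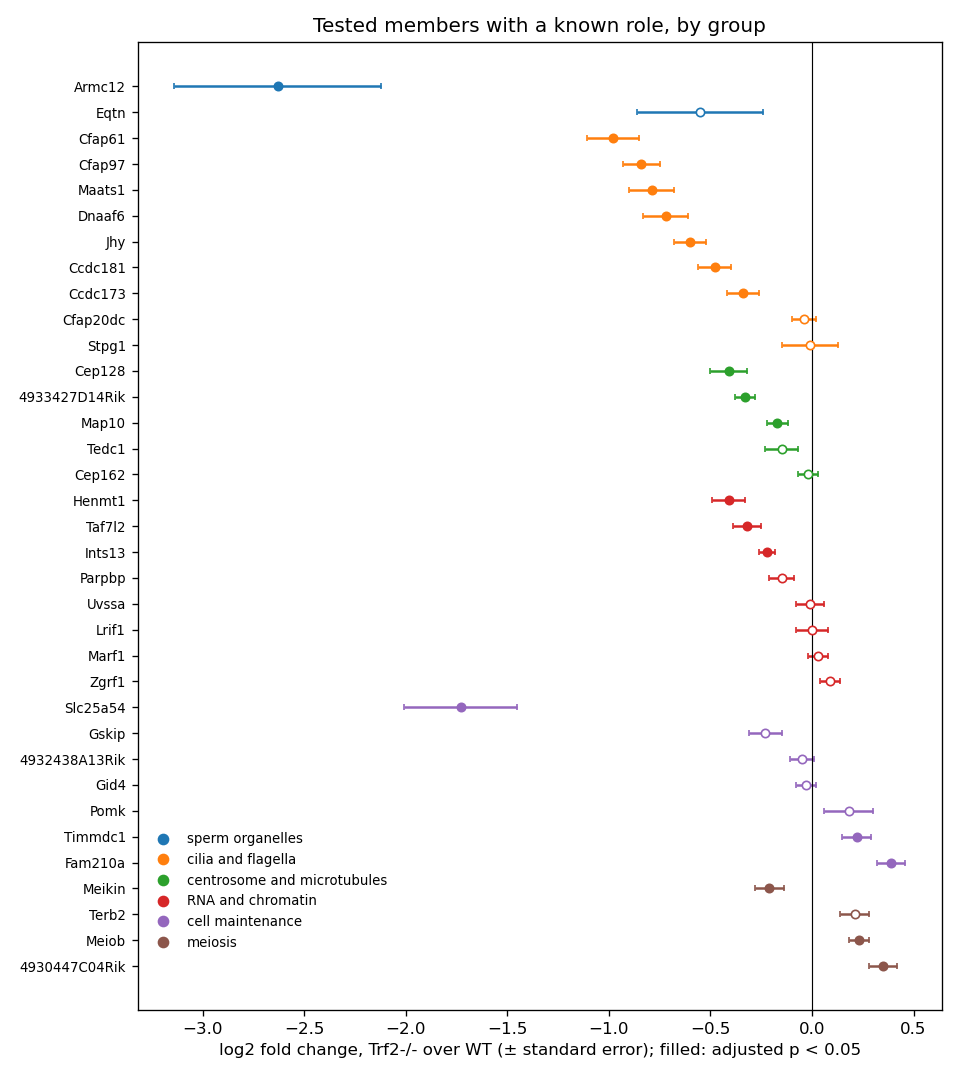
Fitted log2 fold change (Trf2-/- over WT, x axis) with its standard error for the 35 tested members of the role groups (y axis). Colours mark the role group, and filled points an adjusted p under 0.05. Cilium and flagellum genes extend to -0.98, the genes of meiosis lie between -0.21 and 0.35, and Armc12 and Slc25a54 stand apart at -2.63 and -1.73.

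Genes of sperm organelles had few reads at this age, and 2 of 6 were tested. Armc12 (4930511I11Rik), required for the mitochondrial sheath of the sperm midpiece, had 22, 30 and 22 counts in WT and 4, 6 and 0 counts in Trf2-/- testis (6.29-fold lower, interval 3.24 to 13.7, adjusted p = 0.00498). Eqtn, an acrosomal membrane protein gene, had 1.12 ± 0.115 CPM in WT and 0.733 ± 0.316 CPM in the mutant (SD, n = 3 per genotype), which did not pass the test (adjusted p = 0.204). Among the untested, Adam20 (4930529F22Rik) had 10, 13 and 10 counts in WT and 1, 0 and 0 counts in Trf2-/- mice, a ratio of 28.1 with an interval of 4.70 to 1142. Pmis2, Sppl2c and Cabs1 had at most 12 counts in any mouse.

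In the centrosome and microtubule group, 3 of 5 genes were lower, beside 49.5% of all tested members, and none was higher. Cep128 (4930534B04Rik), of the subdistal appendages of the centriole, changed by -0.41 on the log2 scale (adjusted p = 0.00748). 4933427D14Rik, which encodes a protein of centriolar satellites, fell from 105 ± 0.958 to 83.2 ± 2.45 CPM (SD, n = 3 per genotype; log2 fold change -0.33, adjusted p = 0.00115). Map10 was lower by 0.17 on the log2 scale (adjusted p = 0.0372), a call that was lost under 9 of the 12 alternative fits. Tedc1 and Cep162, at -0.15 and -0.02, did not pass the test, and Cep162 lay above 0 when libraries were scaled by size alone.

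Of the 8 genes acting on RNA or chromatin, 3 were lower, beside 49.5% of all tested members, and none was higher. Henmt1 (4921515J06Rik), the methyltransferase that modifies the ends of piRNAs, had 41.8, 40.6 and 40.2 CPM in WT and 31.7, 33.5 and 26.9 CPM in Trf2-/- testis (log2 fold change -0.41, adjusted p = 0.00550). Taf7l2 (4933416C03Rik), related by name to the TFIID subunit gene Taf7l, changed by -0.32 on the log2 scale (adjusted p = 0.00848). Ints13, an Integrator subunit, changed by -0.22 (adjusted p = 0.00583), a call that was lost when libraries were scaled by size alone. Parpbp, Uvssa, Lrif1, Marf1 and Zgrf1 lay between -0.15 and 0.09 and did not pass the test, with Uvssa and Lrif1 above 0 when libraries were scaled by size alone. Zgrf1, whose promoter holds a complete cAMP response element, had 96.8, 96.1 and 96.5 CPM in WT and 103, 97.3 and 109 CPM in the mutant, and Ccdc173, with the same element, was lower. For comparison, a list was made of general transcription factors and regulators of haploid expression. Of its 13 tested genes, 6 were lower at an adjusted p under 0.05 and none was higher (20.2% and 11.2% of all tested genes). Among the 6 is Tbpl1, the inactivated gene, whose decrease was set by the design. The others are Gtf2a1l at -0.77, Rfx2 at -0.51, Tbp at -0.43, Crem at -0.36 and Sox30 at -0.32. The 7 that did not pass lay between -0.12 and 0.26, with Taf7l the highest.

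Genes of general cell maintenance showed no common direction. Of 7 tested, Slc25a54 (4930443G12Rik), a mitochondrial carrier family gene, was called down-regulated, with 18, 12.5 and 15.3 CPM in WT against 5.00, 6.17 and 2.21 CPM in Trf2-/- mice (log2 fold change -1.73, adjusted p = 0.00213). Fam210a and Timmdc1, both of mitochondria, were higher, though Timmdc1 lost the call under 9 of the 12 alternative fits, and Gid4, Gskip, Pomk and 4932438A13Rik did not pass the test. Of the 4 genes of meiosis, 2 were higher and 1 was lower. Meiob (4930528F23Rik), a single-stranded DNA-binding protein of meiotic recombination, had 94.5, 98.2 and 96.4 CPM in WT and 116, 107 and 116 CPM in the mutant (log2 fold change 0.23, adjusted p = 0.00846). 4930447C04Rik, which encodes a central element protein of the synaptonemal complex, had 107, 96.2 and 104 CPM in WT and 136, 120 and 138 CPM in Trf2-/- testis (log2 fold change 0.35, adjusted p = 0.00437). Its exons overlap those of Six6 on the opposite strand. Terb2, which attaches meiotic telomeres to the nuclear envelope, was at 0.21 without passing the test (adjusted p = 0.0580). Meikin, a kinetochore factor of the first meiotic division, was lower, at -0.21 (adjusted p = 0.04997), and lost the call under every alternative fit that was run. The 5 early spermatocyte markers found under their symbol in the table, Meiob not among them, summed to 1375 to 1404 CPM in WT and 1562 to 1687 CPM in Trf2-/- mice, 3 of them were higher at an adjusted p under 0.05, and their part in these increases was not tested.

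The 8 members that were higher included 1 called up-regulated. The X-linked 4933403O08Rik (chrX:109352658-109357461, 3 exons) had 1.53, 1.19 and 1.63 CPM in WT and 2.54, 2.83 and 3.54 CPM in Trf2-/- testis. The log2 fold change was 1.02 (SE 0.21, adjusted p = 0.00632), and it fell under the 2-fold requirement without WT mouse 2 or without Trf2-/- mouse 3, with estimates between 0.89 and 1.11. 4930481A15Rik, classed by RefSeq as a long non-coding RNA, rose from 2.96 ± 0.0801 to 4.18 ± 0.508 CPM (SD, n = 3 per genotype; log2 fold change 0.51, adjusted p = 0.0313), and lost the call under 7 of the 12 alternative fits. Fam210a, Shtn1, Timmdc1 and Susd6 had log2 fold changes of 0.39, 0.28, 0.22 and 0.20. Susd6 was the only other member higher at this threshold and is named after its values were seen.

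Members that belong to the same protein family or are adjacent on the chromosome differed in size of change. In the Mroh family, Mroh8 (4922505G16Rik) fell from 214 ± 4.31 to 149 ± 20 CPM (SD, n = 3 per genotype), a log2 fold change of -0.52, whereas Mroh9 was at -4.07. Per kilobase, their WT levels were 44.2 and 0.467 RPKM. Fam227b (4930525F21Rik) fell from 84.4 ± 2.29 to 32.8 ± 10.8 CPM (SD, n = 3 per genotype; log2 fold change -1.35, adjusted p = 0.00124), while Fam227a, at 21.5 ± 1.12 and 18.9 ± 0.299 CPM, did not pass the test (log2 fold change -0.19, adjusted p = 0.0781). Erich3 and Erich2 had log2 fold changes of -3.14 and -0.50, and Erich2 did not pass the test without WT mouse 2. Potegl and A26c3, both of the POTE ankyrin family, were closer, at -1.04 and -0.77. Potegl fell short of the 2-fold requirement without WT mouse 3, without Trf2-/- mouse 3 or with library size alone. The differences between family members were not tested. Adjacent on chromosome 7, 4930571K23Rik was called down-regulated at -1.18 (adjusted p = 0.0149), and its neighbour 4933440M02Rik was lower at -0.30 (adjusted p = 0.0178). Without WT mouse 1 neither passed the test, and 4933440M02Rik also lost the call without WT mouse 2 or without Trf2-/- mouse 1. The 2 genes that share the name 4922502B01Rik lie side by side on chromosome 8 and had log2 fold changes of -0.79 and -0.51, neither past the test, and reads shared between such copies could have been split by the counting.

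The decrease was present in each Trf2-/- mouse but was not equal between them. Over all 186 tested members, the median log2 ratio to the WT mean was -0.42, -0.28 and -0.57 in Trf2-/- mice 1, 2 and 3. Over all tested genes, it was 0.01, 0.0 and 0.04. The 37 down-regulated members were chosen for their decrease in these same mice, and their medians were -1.5, -1.21 and -1.99. In the WT mice, which set the mean, the medians of the 37 lay between -0.07 and 0.04. Over the tested members that were not called, the medians in the Trf2-/- mice were -0.27, -0.21 and -0.35. Trf2-/- mouse 3 had the lowest level of the mutants in 32 of the 37 down-regulated members (86.5%), in 116 of 186 tested members (62.4%) and in 37.5% of all tested genes. The same mouse had the lowest summed round spermatid markers, 29.2 CPM against 40.9 and 44.4 CPM, and the lowest pachytene markers, 3568 CPM against 4188 and 4408 CPM. Acr made up most of the round spermatid sums, and Ldhc with Hspa2 most of the pachytene sums. Trf2-/- mouse 3 had the highest Sertoli cell and spermatogonial sums of the mutants, 1902 and 342 CPM. Its Leydig and macrophage sums, 185 and 198 CPM, were the lowest of the mutants. Its peritubular sum, 396 CPM, lay between those of the other mutants. The part of these differences in the members' decrease was not tested. Without this mouse, 33 members were called down-regulated, 29 of them among the 37, and the median log2 fold change of the members was -0.39. The genes that lost the call were 4921511H03Rik, 4921524L21Rik, 4930544G11Rik, 4930571K23Rik, 4930572J05Rik, 4931423N10Rik, 4933405L10Rik and 4933427I04Rik, with log2 fold changes between -1.19 and -1.04 in the full set. Leaving out Trf2-/- mouse 2 moved the fold of Mroh9, 4932429P05Rik, Tex36, 4930578I06Rik, Phf8-ps and Armc12 by more than 1.5 times, to log2 fold changes down to -4.70 for Mroh9. Leaving out Trf2-/- mouse 1 did so for 4930433I11Rik, to -3.43.

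**Figure D5:**
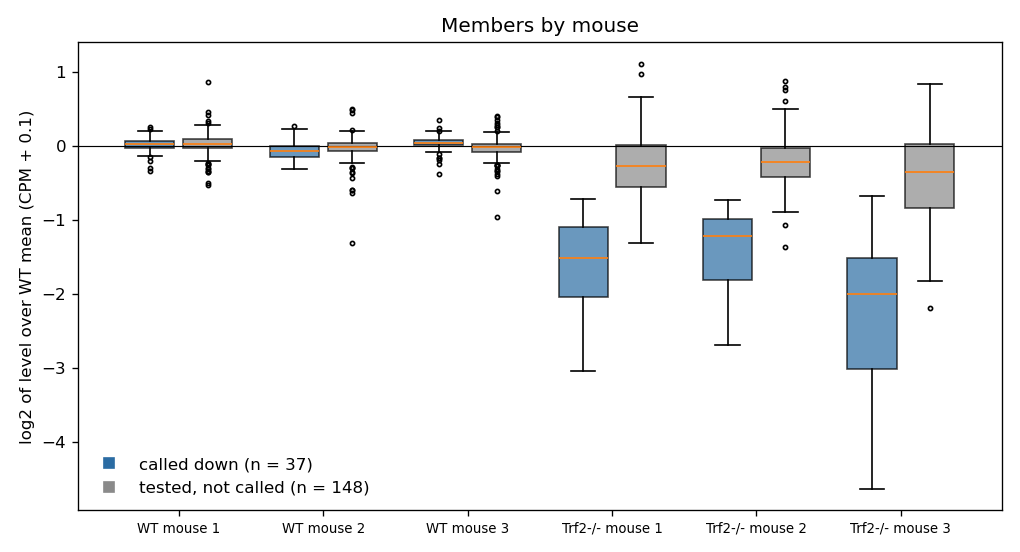
Log2 ratio of each member's level to its WT mean (y axis, with 0.1 CPM added to both) in each of the 6 mice (x axis), for the 37 members called down-regulated and the 148 tested members not called. Boxes show the quartiles and median, whiskers reach 1.5 interquartile ranges and points lie beyond. The down-regulated members were chosen for their decrease in these same mice. Their medians are -1.5, -1.21 and -1.99 in the Trf2-/- mice and near 0 in the WT mice, which set the mean.

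Expression level, clone series and chromosome were considered next. Of the 39 tested members with a mean WT level of 0.5 to 2 CPM, a scale of counts not corrected for length, 14 were called down-regulated (35.9%, against 9.88% of all tested genes at this level). From 2 to 10 CPM the share was 10 of 43 (23.3%, against 6.16%), from 10 to 50 CPM 8 of 52 (15.4%, against 2.51%) and above 50 CPM 5 of 48 (10.4%, against 2.31%). Below 0.5 CPM only 4 of 93 members were tested, none of which was called, and their median log2 fold change was 0.61, compared with 0.44 over the 499 tested genes at this level, of which 1 was called (0.2%). Whether a gene so low in WT enters the test depends on its level in Trf2-/- testis. By series, the genes starting with 4921 had a median log2 fold change of -0.91 with 8 of 17 tested called down-regulated, and those starting with 4933 had -0.30 with 4 of 46. The 4930 genes, the largest series with 90 tested, had a median of -0.46 and 19 calls. Genes that RefSeq does not class as protein-coding had 6 calls among 27 tested and a median of -0.57, compared with 29 among 149 and -0.41 for those it does. Single-exon members had 8 calls among 27 tested, and members with 2 to 5 exons had 15 among 60. Those with 6 to 10 exons had 5 calls among 54, and those with over 10 exons had 9 among 45. Over all tested members 37 of 186 were called down-regulated (19.9%), and over all tested genes 4.3%. Differences between these classes were not tested.

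On the X chromosome, which is silenced in spermatocytes during meiosis, lie 27 members, and only 8 of them were tested (29.6%, against 70.8% of all protein-coding genes of the X). Of all 561 tested protein-coding genes of the X, 1.07% were lower and 24.6% were higher at an adjusted p under 0.05. Called down-regulated were 0.713% of them and called up-regulated 1.25%. Of the 8 members, 4932429P05Rik was lower, 4933403O08Rik was higher and the remaining 6 did not pass the test. These include Ct55, 4933402E13Rik, 4930550L24Rik and Fam90a1b, with log2 fold changes between -0.01 and 0.08. On the autosomes, 36 of 178 tested members were called down-regulated (20.2%, against 4.04% of all tested autosomal protein-coding genes) and the median log2 fold change was -0.48. Over all protein-coding genes, the median was 0.21 on the X chromosome and 0.03 on the autosomes.

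The 90 members that were not tested had between 0 and 40 counts summed over the WT mice, with a median of 6.5, and between 0 and 18 counts summed over the Trf2-/- mice, with a median of 2. In 42 of them no mouse had more than 3 counts, and 27 had no count in any Trf2-/- mouse, compared with 4 without a count in any WT mouse. In 34, each WT mouse had a higher level than each Trf2-/- mouse, and the reverse held in none (37.8% and 0%, against 6.52% and 3.96% of all 9819 genes not tested, whose median WT sum was 3 counts). These genes were removed for low counts and carry no test. The X-linked 4933428M09Rik, with 11, 9 and 14 counts in WT and 1, 3 and 0 counts in Trf2-/- testis, had a ratio of 7.23 (interval 2.58 to 28.0), and 4930415O20Rik, with 15, 17 and 8 counts against 2, 5 and 0 counts, had a ratio of 4.86 (interval 2.15 to 12.9). Both were chosen for their counts. Intervals and limits cover counting error only.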

How the data were processed

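The authors depleted total testis RNA of ribosomal RNA, prepared strand-specific libraries and sequenced single-end reads of 50 bases. According to the submitters' processing notes, CASAVA 1.8.2, TopHat2 2.0.10, Bowtie2 2.1.0, HTSeq 0.5.4p3 and DESeq2 1.0.19 were used with build mm9 (NCBIM37). The strand setting and annotation release are not given in the sources used here. The authors deposited raw read counts per gene for 6 mice. A further 12 columns of normalized values per mouse were not used. Members were taken by gene name and biotype, and the members and lists were chosen with earlier results of these data known.

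Counts were compared with edgeR 4.0.16 (R 4.3.3) using filterByExpr, TMM factors, glmQLFit and glmQLFTest over all 16924 genes kept, with Benjamini-Hochberg adjustment. A gene was called at an adjusted p under 0.05 and a fold change of at least 2. CPM use TMM-scaled library sizes and RPKM also the deposited gene length. The standard error was derived from the log2 fold change and its F statistic. For members with 1 to 12 counts over the 3 Trf2-/- mice, ratios of summed counts carry an exact binomial interval of 95%. Alternatives were DESeq2 size factors or library size, the Wald test of DESeq2 1.42.0, 2 other filters, a replicate block, leaving out each mouse, an adjusted p of 0.01 and no fold threshold. The tests were tried on simulated counts for the same genes. Counts of replicates differed by more than sampling noise in each pair.

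Named are the 10 largest decreases among down-regulated members with at least 10 counts in each WT mouse and no overlap. Also named are the 5 with the lowest adjusted p, the 5 largest increases and the 8 highest WT levels per kilobase. Members grouped by role, from current symbols and general knowledge, and neighbours or relatives of called members were named too. No member is in the study's lists shared with Taf7l or CREM. Marker lists were used for the germ cell stages and for somatic cells (Sertoli, Leydig, peritubular, macrophage).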

Additional observations from a re-analysis of the deposited data

How the results depend on the processing

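The number of members called down-regulated was 37 and stayed within 1.5 times with DESeq2 size factors (37), library size alone (32), the DESeq2 Wald test (35), an adjusted p under 0.01 (34), at least 1 count (53) and each mouse left out (33 to 45). With at least 10 counts in every mouse it was 21, with 156 members tested. This filter also requires 10 counts in each Trf2-/- mouse, and it removed 16 of the 37 members through their low Trf2-/- counts. With no fold threshold, 92 were lower and 8 higher. Members called up-regulated numbered 0 to 2 with each mouse left out. Members higher at an adjusted p under 0.05 numbered 16 with library size alone and 5 to 8 with each mouse left out. The median log2 fold change was -0.61 with at least 1 count, where all 276 members entered, -0.36 with library size alone and -0.58 to -0.39 with each mouse left out. With library size alone, which moved the median of all genes from 0.04 to 0.13, Gid4, Cfap20dc, 4932438A13Rik, Stpg1, Uvssa, Lrif1 and Cep162 turned positive, at 0.06, 0.06, 0.05, 0.09, 0.09, 0.09 and 0.08. None of these passed the test in either fit. Lrif1 was at 0.00 with at least 1 count, and with single mice left out Lrif1, Uvssa, Stpg1, 4932438A13Rik and Cep162 reached -0.08 to 0.06, -0.06 to 0.06, up to 0.07, -0.09 to 0.01 and -0.04 to 0.00. Of 721 values of named members under the alternatives, 656 kept their direction and their side of an adjusted p of 0.05. A further 44 lost and 4 gained this threshold, and 17 changed sign. The 2-fold requirement does not enter these numbers. Potegl, at -0.95 with library size alone, is among those that kept it, though its down-regulated call was lost there. Map10, Meikin, Timmdc1 and 4930481A15Rik account for 37 of the 44 losses, by 9, 12, 9 and 7. Replicate numbers did not pair the mice, since same-numbered mice had correlated deviations of -0.0973, -0.0313 and -0.102, and the replicate block called 38 members down-regulated. Depth limits the decreases of Mroh9 and 4932429P05Rik, which had at most 3 counts in each Trf2-/- mouse.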

Other observations

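Leydig cell markers summed to 181 to 360 CPM in WT and 185 to 326 CPM in Trf2-/- mice, peritubular markers to 289 to 371 and 363 to 417 CPM, and macrophage markers to 175 to 204 and 198 to 386 CPM. Of the 8 macrophage markers, 4 were higher at an adjusted p under 0.05 and none was lower. Their sums were uneven, at 386, 235 and 198 CPM in Trf2-/- mice 1, 2 and 3, and mouse 3 lay within the WT range. Of the 6 Leydig and 5 peritubular markers, 1 each was higher. None of these somatic markers is a member, and their part in the members' decreases was not tested.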
